A study of Mus musculus with 6 samples.

Results

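Mitochondrial protein import genes encode the machinery that carries proteins made in the cytosol into mitochondria. They were taken here as every gene whose annotated symbol is Timm or Tomm followed by a number, together with Pam16, Grpel1, Grpel2, Samm50, Mtx1, Mtx2, Pmpca, Pmpcb and Chchd4. This gave 32 genes of 18193 with a probe set paired with 1 gene only, and each gene was represented by the probe set chosen by its mean intensity over all 6 arrays, the brightest. That mean also decided which genes were tested, at a limit of 38.6 intensity units, and 30 of the 32 passed. Timm9, at 132, was the dimmest of those that passed, and Tomm20l, at 11.9, the brighter of the 2 that did not. Symbols and brightness chose the members, but the group was put together with results of the same comparison known, so its counts and adjusted p-values are given as a description and support no statement about the group.

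RNA came from Ba/F3-N cells, made by transforming Ba/F3, a mouse pro-B line that needs interleukin-3, with NRAS-G12D, an oncogenic form of a small GTPase, so that both groups carry the oncogene. The 3 NADA samples had 1 µM N-arachidonoyl dopamine (NADA), a conjugate of arachidonic acid and dopamine, for 12 hours, and the 3 vehicle samples had an equal volume of vehicle for the same time. Each sample was hybridised to 1 Affymetrix mouse whole-genome array, on which a transcript is read by 1 or more probe sets. No label says whether the samples of a group came from separate cultures, so p-values measure only the spread between these arrays, and 3 arrays per group limit the precision. Nor do the labels say whether the line is 1 clone.

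Nearly all mitochondrial proteins are encoded in the nucleus and enter through the TOM complex, a pore with receptors in the outer membrane. From there, proteins with an N-terminal presequence pass through the TIM23 complex with the pull of a matrix motor, multispanning carriers are escorted by small TIM chaperones to the TIM22 complex, barrel-shaped proteins are inserted into the outer membrane by the SAM complex, and small cysteine-rich proteins are trapped in the intermembrane space by a disulfide relay. Presequences are removed in the matrix by a processing peptidase. In growing cells, such as a transformed blood line, this machinery supplies the respiratory chain and the other mitochondrial enzymes.

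Values are intensities on a linear scale as deposited, and fold changes are log2 of NADA over vehicle with the standard error of the fit. A gene is called, and said to rise or fall, at a Benjamini-Hochberg adjusted p under 0.05 by limma over all 10526 genes tested. Across genes, the correlation was 0.997 to 0.998 between arrays within a group and 0.936 to 0.940 between a NADA and a vehicle array. The bacterial poly-A RNAs that are added to each sample as controls averaged 8.72 ± 0.21 log2 units in NADA and 8.14 ± 0.01 in vehicle (SD, n = 3 each), and scaling the arrays to them (poly-A scaling) lowers every log2 fold change by 0.58 and the median of all genes to -0.57. The log2 ratio of the 3' to the 5' control probe set of Actb was 1.06 ± 0.05 in NADA and 0.67 ± 0.04 in vehicle. Of 9 markers of the line with a single-gene probe set 6 passed the brightness limit, among them the interleukin-3 receptor chains Il3ra, Csf2rb and Csf2rb2, and the pro-B markers Vpreb1, Ebf1 and Pax5 did not. Ptprc, Csf2rb and Csf2rb2 averaged 5100, 1817 and 1584 over all arrays, and the line's other markers at most 127. Markers of other cells passed too, 2 of 4 for T and natural killer cells, 1 of 4 each for fibroblasts and epithelium and 2 of 3 for endothelium. The summed intensity of the 9 markers of the line was 13724 to 13801 in NADA and 5926 to 6164 in vehicle. Each of the lists for other cells was summed by itself. The highest such sum, that of endothelium, was at most 164 in any NADA array and 166 in any vehicle array. The part of these differences between the arrays in the results below was not tested. A lower share of cells with a transcript and less of it per cell cannot be told apart in RNA from whole cultures.

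Transcripts of the import machinery were mostly lower after NADA. Of the 30 genes tested 25 fell, 2 rose and 3 were not called, in a table where 37.5% of all genes were called lower and 35.8% higher. Their median log2 fold change was -0.44, beside 0.01 for all genes tested, and 7 of them fell at least 2-fold, as 5.99% of all genes did. In 27 of the 30 the NADA and the vehicle values did not overlap, as in 75.9% of all genes. With poly-A scaling 29 fell, 0 were higher at an adjusted or an unadjusted p under 0.05 by limma, and the median was -1.02, while 76.1% of all genes were then called lower and 6.96% higher.

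**Figure D1:**
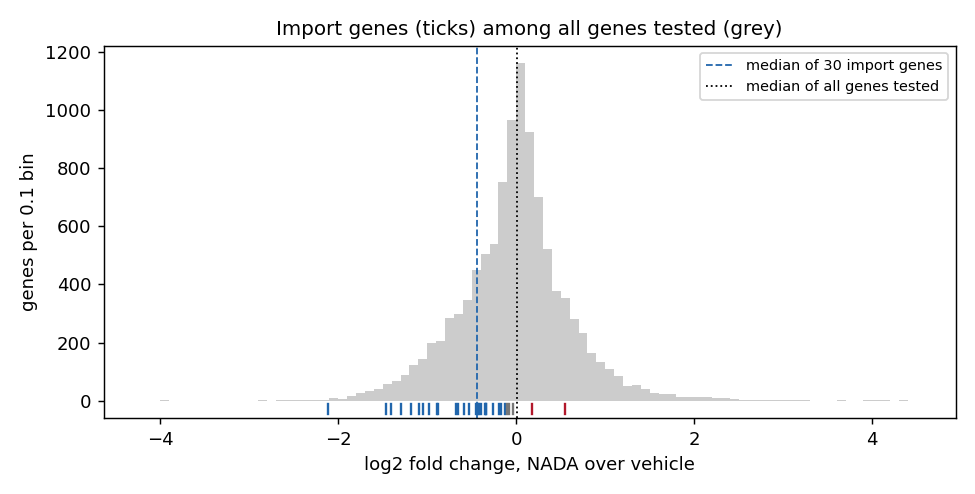
Histogram of log2 fold changes (NADA over vehicle, horizontal axis) of the 10526 genes tested, as genes per bin (vertical axis), with a tick under it for each of 30 import genes, blue where called lower, red where called higher and grey where not called. The dashed line is the median of the import genes (-0.44) and the dotted line that of all genes (0.01). The ticks run from Timm8a1 at -2.11 to Pmpcb at 0.55, and with poly-A scaling no tick would be called higher.

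The promoters of 5 of these genes are shown as examples picked for the motifs in them. Timm8a1, Timm9, Timm23 and Timm10 are the 4 of the 7 genes lower by at least 2-fold that hold a CACGTG or a CCGGAAG on either strand, and Pmpcb, which holds CCGGAAG, had the highest log2 fold change of the group as deposited. Each runs from 250 bases before the start of the gene to 50 after it, 5′ to 3′ on the strand of the gene, as RefSeq gives it on GRCm38.p6, and capitals mark both of these motifs on either strand. Timm8a1 lies at chrX:134541621-134541920, minus strand, Timm9 at chr12:71136626-71136925, minus strand, Timm23 at chr14:32201842-32202141, minus strand, Timm10 at chr2:84826771-84827070, plus strand, and Pmpcb at chr5:21736910-21737209, plus strand.
Timm8a1: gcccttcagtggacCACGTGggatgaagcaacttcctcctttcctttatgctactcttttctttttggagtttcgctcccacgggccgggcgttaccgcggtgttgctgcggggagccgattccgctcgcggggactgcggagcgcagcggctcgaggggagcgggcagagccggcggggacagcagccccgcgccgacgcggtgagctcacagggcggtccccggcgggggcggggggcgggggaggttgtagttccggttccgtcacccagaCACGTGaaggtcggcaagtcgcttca
Timm9: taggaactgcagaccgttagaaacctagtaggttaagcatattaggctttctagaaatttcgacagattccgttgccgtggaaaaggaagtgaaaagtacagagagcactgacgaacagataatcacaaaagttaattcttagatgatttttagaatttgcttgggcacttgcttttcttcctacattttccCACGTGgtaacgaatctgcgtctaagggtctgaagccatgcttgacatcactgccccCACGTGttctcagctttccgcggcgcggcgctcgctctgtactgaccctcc
Timm23: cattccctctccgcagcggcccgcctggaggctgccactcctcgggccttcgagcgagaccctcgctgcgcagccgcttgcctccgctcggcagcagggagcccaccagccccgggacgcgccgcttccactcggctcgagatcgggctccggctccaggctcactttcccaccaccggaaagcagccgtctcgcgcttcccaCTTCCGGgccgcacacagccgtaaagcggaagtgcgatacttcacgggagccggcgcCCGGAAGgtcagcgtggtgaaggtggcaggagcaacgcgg
Timm10: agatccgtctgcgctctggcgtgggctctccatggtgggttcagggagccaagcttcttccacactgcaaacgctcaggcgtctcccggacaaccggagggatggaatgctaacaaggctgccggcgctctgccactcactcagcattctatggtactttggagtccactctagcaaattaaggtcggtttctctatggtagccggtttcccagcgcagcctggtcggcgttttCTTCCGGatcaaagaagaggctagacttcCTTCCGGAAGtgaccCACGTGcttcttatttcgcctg
Pmpcb: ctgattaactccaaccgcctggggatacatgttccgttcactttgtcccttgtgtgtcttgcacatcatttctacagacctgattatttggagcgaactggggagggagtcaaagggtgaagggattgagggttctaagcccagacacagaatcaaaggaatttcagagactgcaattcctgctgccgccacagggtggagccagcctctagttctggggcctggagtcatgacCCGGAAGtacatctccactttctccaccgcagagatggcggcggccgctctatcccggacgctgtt

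CACGTG, the core of the E-box that MYC and related factors bind, stood in the promoters of Timm8a1, Timm9, Timm10 and Tomm20, 4 of 26 tested import genes with a promoter sequence (15.4%), beside 11.9% of 8556 tested genes. CCGGAAG, a core of ETS factor sites, was in 13 of the 26 (50%), beside 21.6% of tested genes. Of the others searched on both strands, GGGCGG (GC box) was in 61.5% of the import genes and 68.4% of tested genes, CCAAT in 26.9% and 42.6%, AAGATGGCG (YY1) in 7.7% and 3.9%, and GCGCATGCG (NRF1) in 3.8% and 4.4%. CCGGAAG and its reverse complement overlap at 1 place in the Timm10 promoter. These matches are letters in a window and were tested neither for binding nor against the fold changes. Pmpcb, which rose, and Timm23, which fell, both hold CCGGAAG, and the promoters of Tomm40, Chchd4 and Timm50, which fell at least 2-fold, hold neither of the marked motifs.

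The small TIM chaperones, which carry hydrophobic proteins across the intermembrane space, had the lowest median of the roles with 3 or more genes, -1.04. All 6 tested fell, as 37.5% of all genes tested did. Timm8a1, the mouse counterpart of the human deafness-dystonia gene TIMM8A, read 630.3, 633 and 679 in the NADA arrays, against 2815, 2881 and 2704 in the vehicle arrays. All NADA arrays lay far below all vehicle arrays, and the log2 fold change of -2.11 ± 0.04 (limma adjusted p = 3.6e-16) was the 18th lowest of all genes tested. Timm13, its partner in the same chaperone complex, averaged 911 ± 9.77 in NADA and 1794 ± 53.9 in vehicle (SD, n = 3 each), a log2 fold change of -0.98 ± 0.03. Timm9 and Timm10 together form the main chaperone for carriers. Timm9 read 73.2, 80.6 and 90.8 in NADA, against 218, 209 and 217 in vehicle, and fell by 1.40 ± 0.07 on the log2 scale. A dimmer probe set of Timm9 had a log2 fold change of -0.81, less than 2-fold, and the mean of its probe sets gave -1.11. Timm10 read 755, 759 and 731 in NADA, against 1670.2, 1531 and 1592 in vehicle, with a log2 fold change of -1.09 ± 0.04. In both genes all NADA arrays lay below all vehicle arrays, and 75.9% of all genes had groups that did not overlap. The NADA arrays of Timm9 were the more spread in proportion to their level.

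The other 2 small TIMs fell by less. Timm8b, a paralog of Timm8a1, read 737, 712 and 687 in NADA, against 1099, 1058 and 1064 in vehicle (-0.59 ± 0.04). Timm10b, which sits on the TIM22 complex, read 627, 687 and 616 in NADA, against 821, 799 and 824 in vehicle (-0.34 ± 0.04). Neither gene had overlapping groups, nor did 75.9% of all genes. Timm8a2, a further paralog, read 3.85, 3.09 and 3.86 in NADA and 3.35, 2.8 and 3.42 in vehicle, far under the brightness limit in both groups, and was not tested. Both tested members of the TIM22 complex, the insertase for carriers, fell, as 37.5% of all genes tested did. Its channel-forming subunit Timm22 read 522, 512 and 498 in NADA, against 650.3, 657 and 638 in vehicle (-0.35 ± 0.04), and Timm29, which stabilises that complex in human cells, had a log2 fold change of -0.45 ± 0.05. With the probe sets of a gene averaged Timm22 gave -0.23 and Timm29 -0.57.

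**Figure D2:**
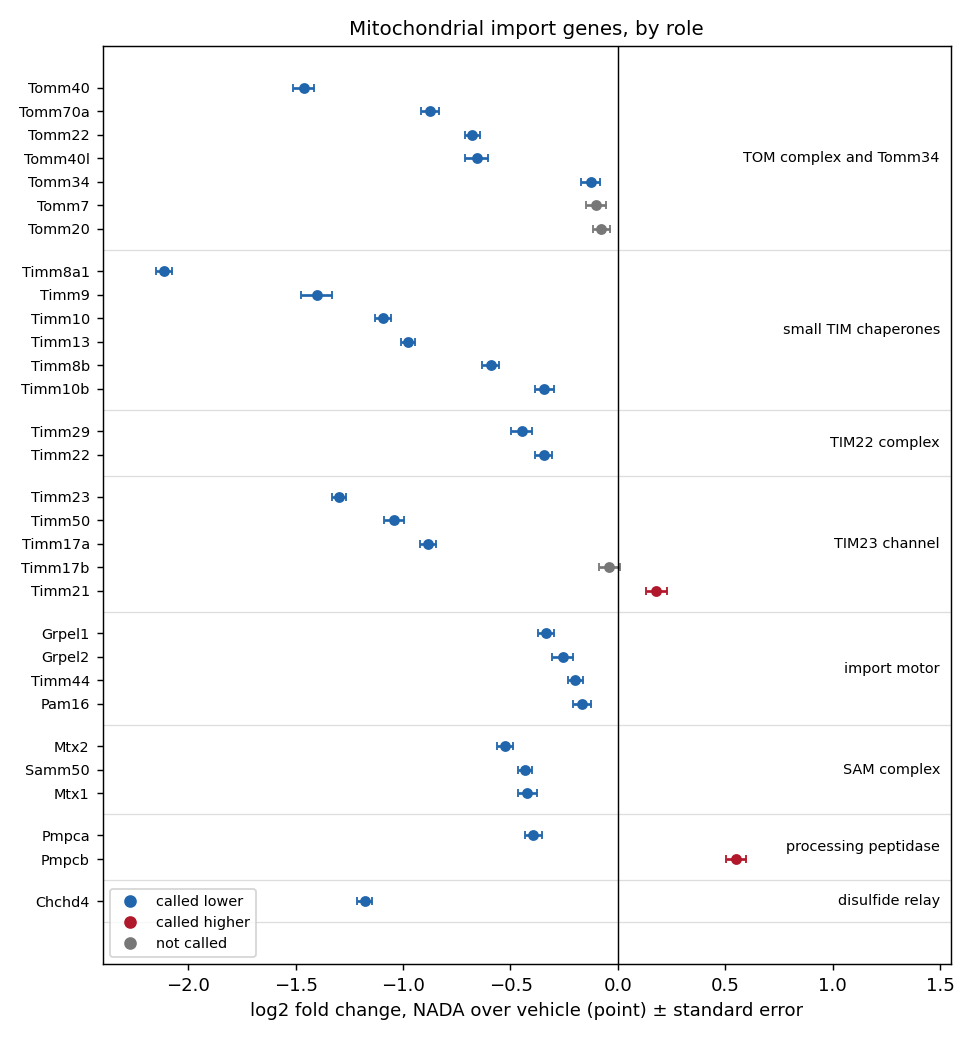
Log2 fold change of each of 30 import genes (horizontal axis, points with standard errors), grouped by role down the page, blue for called lower, red for called higher and grey for not called. Timm8a1 (-2.11), Tomm40 (-1.46), Timm9 (-1.40) and Timm23 (-1.30) lie farthest to the left, and Pmpcb and Timm21 lie right of 0, where neither stays with poly-A scaling (-0.03 and -0.40).

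In the TIM23 complex 3 of 5 genes fell, 1 rose and 1 was not called, beside 37.5% lower and 35.8% higher of all genes. Timm23, the channel-forming subunit, read 1283, 1263 and 1239 in NADA, against 3178, 3115 and 3019 in vehicle, a log2 fold change of -1.30 ± 0.03 (limma adjusted p = 6.1e-15). Timm50, its receptor in the intermembrane space, read 213, 212 and 209 in NADA, against 446, 423 and 436 in vehicle (-1.04 ± 0.05). For both genes every NADA array lay far below every vehicle array, but a dimmer probe set of Timm50, whose groups overlapped, had a log2 fold change of -0.16, and the mean of the probe sets of Timm50 gave -0.60. Timm17a and Timm17b encode forms of the subunit that pairs with Timm23. Timm17a read 586, 570.5 and 567 in NADA, against 1068, 1065 and 1049 in vehicle (-0.88 ± 0.04), whereas Timm17b read 362, 373 and 393 in NADA and 397, 398 and 365 in vehicle, with overlapping groups (-0.04 ± 0.05, limma adjusted p = 0.5). Timm21, which links the channel to the TOM complex and the respiratory chain, read 375, 406 and 373 in NADA, against 353, 336 and 329 in vehicle. The groups of Timm17a and of Timm21 did not overlap, as in 75.9% of all genes. Timm21 rose by 0.18 ± 0.05 with the values as deposited and fell by 0.40 on the log2 scale with poly-A scaling.

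The 4 members of the matrix motor that pulls precursors in fell, as 37.5% of all genes tested did. Their log2 fold changes ran from -0.34 to -0.17 as deposited, beside a median of 0.01 for all genes. With poly-A scaling they ran from -0.91 to -0.75, beside a median of -0.57 and 76.1% of all genes called lower. Timm44, which tethers the mitochondrial Hsp70 to the channel, read 1059, 1039 and 1053 in NADA, against 1218, 1211 and 1185 in vehicle (-0.20 ± 0.03). Grpel1, the nucleotide exchange factor of that Hsp70, read 706, 725 and 699.6 in NADA, against 909.8, 894 and 887 in vehicle (-0.34 ± 0.04), and its paralog Grpel2 read 264, 277 and 252 in NADA, against 321, 309 and 318 in vehicle (-0.26 ± 0.05). The groups of each of these genes did not overlap, as in 75.9% of all genes. Grpel2 was not called with its probe sets averaged (-0.10, limma adjusted p = 0.116), and its dimmer probe set gave 0.06. Timm44 was at -0.12 after quantile normalization, and its dimmer probe sets gave -0.16 and -0.41. Pam16, a J-domain-like regulator of the motor, had a log2 fold change of -0.17 ± 0.04 and was not called after quantile normalization (-0.08, limma adjusted p = 0.0996).

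Of the 7 TOM complex genes tested, Tomm34 included, 5 fell, beside 37.5% lower and 35.8% higher of all genes tested. Among these 7 the pore had the lowest log2 fold change. Tomm40, the barrel that forms the channel, read 158, 157 and 157 in NADA, against 429, 450.1 and 421 in vehicle, so that the NADA arrays were nearly equal and all far below the vehicle arrays. Its log2 fold change was -1.46 ± 0.05 (limma adjusted p = 1.71e-13). Tomm40l, a paralog of the pore, read 125, 129.9 and 125 in NADA, against 206, 197 and 197 in vehicle (-0.66 ± 0.05). The receptors Tomm70a, which takes up carriers from cytosolic chaperones, and Tomm22, which organises the complex, fell as well. Tomm70a read 772, 781 and 798 in NADA, against 1351, 1444 and 1518 in vehicle (-0.87 ± 0.04), and Tomm22 read 932, 971 and 977 in NADA, against 1579, 1526 and 1502 in vehicle (-0.68 ± 0.04). None of these 4 genes had overlapping groups with its brightest probe set, nor did 75.9% of all genes. A dimmer probe set of Tomm22, whose groups overlapped, gave -0.27, and the mean of the probe sets of Tomm22 gave -0.47.

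Tomm20, the receptor for presequences, read 8245, 8431 and 9472 in NADA and 8936, 9224 and 9385 in vehicle with its brightest probe set, and the groups overlapped (-0.08 ± 0.04, limma adjusted p = 0.0923). NADA replicate 3 stood above all vehicle arrays, and without it Tomm20 was called lower (-0.14, limma adjusted p = 6.7e-05). With its probe sets averaged Tomm20 was called lower at -0.50 (limma adjusted p = 8.26e-10). The small subunit Tomm7 read 1313, 1353 and 1410.2 in NADA and 1361, 1557 and 1461 in vehicle, again with overlap (-0.10 ± 0.05, limma adjusted p = 0.0529). Tomm7 was called lower without NADA replicate 3 (-0.13) and without vehicle replicate 1 (-0.15), and also with its brightest probe set that has no x or s suffix (-0.18). Tomm34, a cytosolic co-chaperone of Hsp70 and Hsp90 and no fixed part of the pore, was the weakest fall called (-0.13 ± 0.04, limma adjusted p = 0.0174), and it was lost without vehicle replicate 1 (-0.10, adjusted p = 0.0976) and after quantile normalization (-0.06). Tomm20l, a paralog of the receptor, read 9.57, 13 and 12.7 in NADA and 13, 11.5 and 12.1 in vehicle and was too dim to test. Probe sets paired with a second gene, 1 listing Tomm5 and 2 listing Tomm6, were not used.

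**Figure D3:**
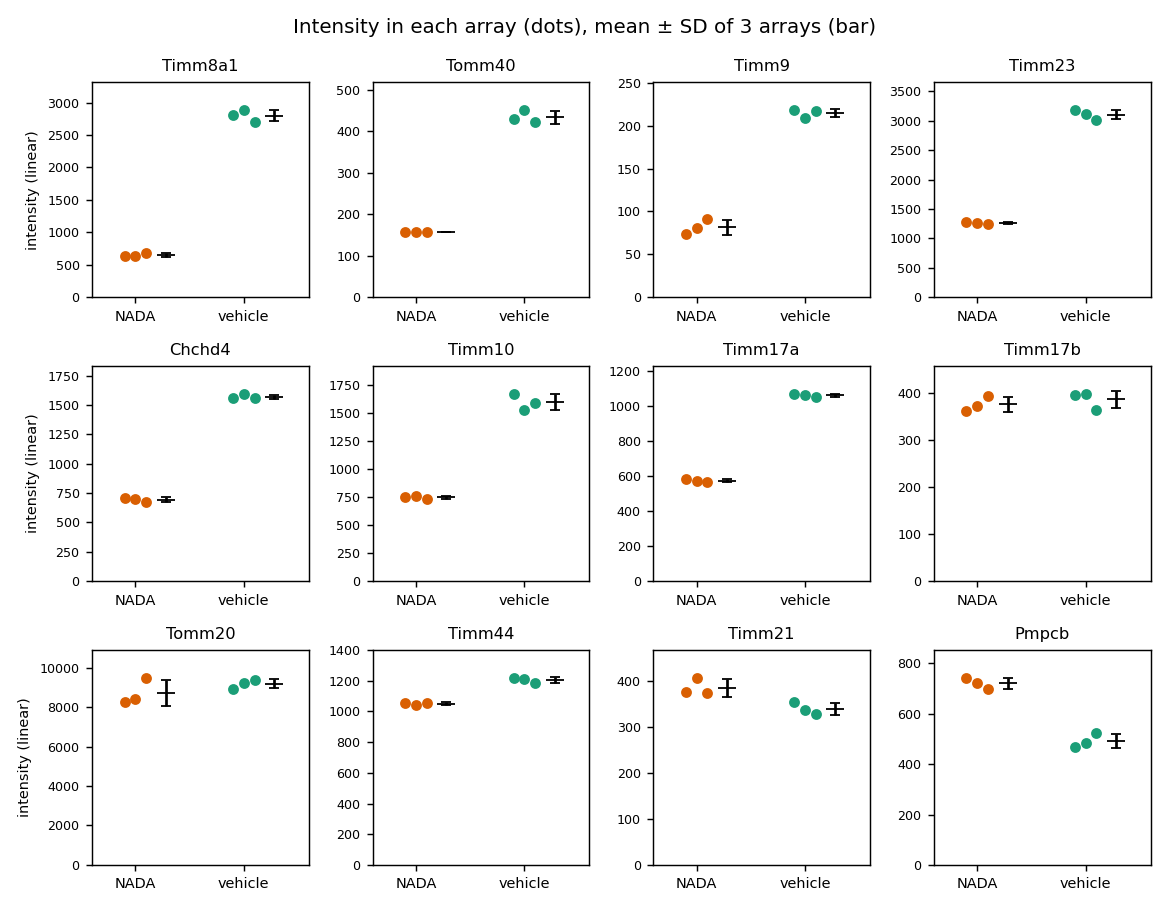
Intensity (vertical axis, linear scale from 0) of 12 import genes in each array, with NADA on the left (orange) and vehicle on the right (green), and the mean ± SD of 3 arrays beside the dots. The NADA dots of Timm8a1, Tomm40, Timm9, Timm23, Chchd4, Timm10, Timm17a and Timm44 lie below their vehicle dots, those of Timm17b and Tomm20 overlap them, and those of Timm21 and Pmpcb lie above them as deposited, but not with poly-A scaling.

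The SAM complex, the disulfide relay and the processing peptidase are the remaining roles. All 3 SAM genes fell, as 37.5% of all genes tested did. Samm50, which inserts barrel proteins into the outer membrane, read 2146, 2152 and 1999 in NADA, against 2789, 2861 and 2842 in vehicle (-0.43 ± 0.03). Its partners, the metaxins, fell too. Mtx1 read 1528, 1439 and 1326 in NADA, against 1949.8, 1949 and 1843 in vehicle (-0.42 ± 0.04), and Mtx2 read 745, 754 and 794 in NADA, against 1092, 1121 and 1091 in vehicle (-0.53 ± 0.04). The NADA arrays lay below the vehicle arrays in all 3 SAM genes, and groups did not overlap in 75.9% of all genes. Chchd4, the oxidoreductase of the disulfide relay that brings in small cysteine-rich proteins such as the small TIMs, read 709, 702 and 671 in NADA, against 1560.1, 1593 and 1559 in vehicle. The NADA arrays were all far below the vehicle arrays, with a log2 fold change of -1.18 ± 0.04 (limma adjusted p = 6.71e-14).

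The 2 subunits of the matrix processing peptidase differed in sign as deposited. Pmpca, the subunit that recognises the presequence, read 565, 550.1 and 530.4 in NADA, against 738, 709 and 715 in vehicle, and fell by 0.39 ± 0.04 on the log2 scale. Pmpcb, the subunit that cuts, read 742, 721 and 698 in NADA, against 466, 486 and 524 in vehicle, and rose by 0.55 ± 0.05 (limma adjusted p = 2.06e-08), but with poly-A scaling it was not called (-0.03, limma adjusted p = 0.836). Neither gene had overlapping groups, nor did 75.9% of all genes. Both probe sets of each gene gave the same call, at -0.39 and -0.65 for Pmpca and at 0.55 and 0.59 for Pmpcb.

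Related genes within the group were compared by the difference of their log2 fold changes, which no scaling common to all genes can move. Of 8 such pairs 7 had both genes tested. The difference (± SE) was -1.52 ± 0.07 for Timm8a1 minus Timm8b, -0.94 ± 0.06 for Pmpca minus Pmpcb and -0.85 ± 0.06 for Timm17a minus Timm17b. It was -0.80 ± 0.05 for Tomm40 minus Tomm40l and -0.75 ± 0.05 for Timm10 minus Timm10b. For Grpel1 minus Grpel2 it was -0.08 ± 0.03, and for Mtx1 minus Mtx2 it was 0.11 ± 0.09. In 6 pairs the p of a two-sided exact permutation test was 0.1, which is as low as 3 arrays against 3 can reach, and for the metaxins it was 0.4, with Benjamini-Hochberg adjusted values over the 7 pairs of 0.117 and 0.4, so no difference within a pair could pass the threshold.

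Most import genes with several probe sets gave the same call with each of them. The 32 genes had 64 single-gene probe sets, and in a fit with every one of the 18979 single-gene probe sets that passed as a row, added after these differences were seen, 48 of the 58 that passed were called lower, 3 higher and 7 not, beside 38.2% of all such probe sets called lower. Of 18 genes with more than 1 passing probe set, 12 had all of them lower and 5 had calls that differed between probe sets. Both probe sets of Timm8a1 were far down (-2.11 and -2.39), and the 4 passing ones of Tomm70a ran from -0.94 to -0.67. Passing probe sets disagreed in size for Timm9 (-1.40 and -0.81), Timm50 (-1.04 and -0.16), Tomm22 (-0.68 and -0.27) and Tomm20, among others. The brightest of Tomm20, which stands for the gene above, gave -0.08. Its 5 dimmer ones, all called lower, gave -0.18, -0.44, -0.22, -0.94 and -1.13 in order of falling intensity. Timm17b was called lower by its dimmer probe set (-0.12), Tomm7 by 1 of 4, and Grpel2 and Timm22 by their brighter one alone. Probe sets with an x or s suffix, which can bind several transcripts, stand for Samm50, Mtx2, Pam16, Timm17b and Tomm7.

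**Figure D4:**
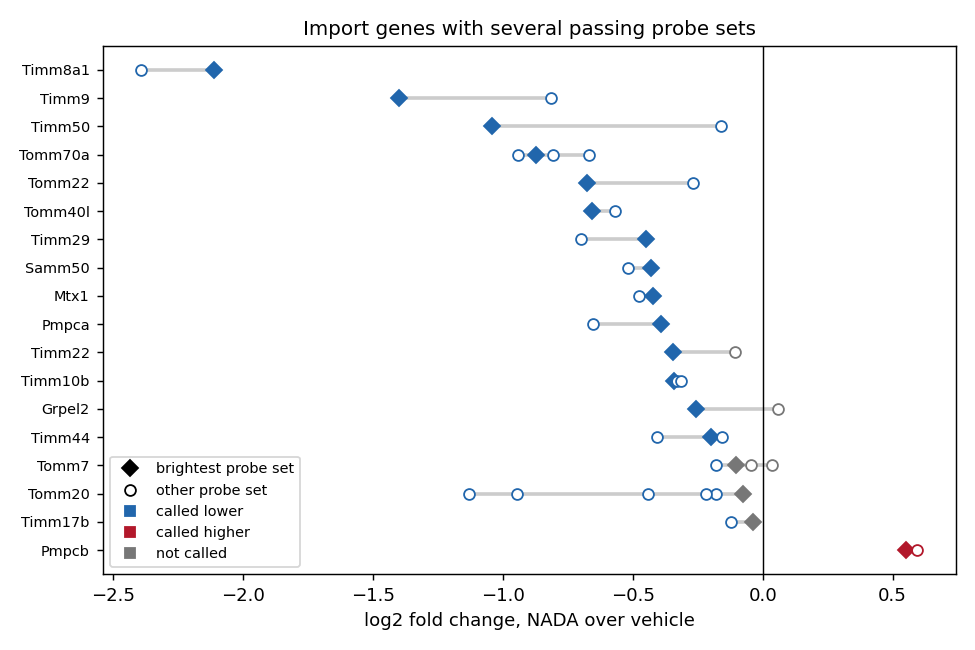
Log2 fold change (horizontal axis) of every passing single-gene probe set of the 18 import genes that have more than 1, with a filled diamond for the brightest and open circles for the others, coloured by call. The 6 probe sets of Tomm20 run from -1.13 to -0.08, and both of Pmpcb lie above 0 as deposited, though the one that stands for it does not with poly-A scaling.

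Genes that work beside the import machinery were read from 6 lists, chosen with earlier results of these data known. Of 47 tested genes in them 31 fell, 11 rose and 5 were not called, with a median of -0.37, beside 37.5% lower and 35.8% higher of all genes tested. With poly-A scaling 40 fell and 4 rose, beside 76.1% and 6.96% of all genes. The counts of each list are to be read beside the same shares. Among presequence motor and matrix chaperones 6 of 8 fell and 1 rose. The chaperonin Hspd1 (-0.82 ± 0.03), the J-protein Dnajc15 (-0.58 ± 0.04) and the inner membrane protein Romo1 (-0.53 ± 0.03) fell, the iron-sulfur co-chaperone Hscb rose (0.93 ± 0.04), and the motor Hsp70 itself, Hspa9, was not called (-0.03 ± 0.03, limma adjusted p = 0.36). Of 6 processing peptidases and disulfide relay genes 5 fell, with the smallest p for Aifm1 (-0.83 ± 0.04), which binds Chchd4, Gfer (-0.79 ± 0.05), the oxidase that recharges it, and Pitrm1 (-0.48 ± 0.04), a protease that clears cut presequences. The peptidase Xpnpep3 also fell (-0.64 ± 0.06). The inner membrane peptidase gene Immp1l rose as deposited (0.20 ± 0.04) and fell after that scaling (-0.38).

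Of 4 inner membrane insertases and prohibitins 3 fell, Phb2 (-0.86 ± 0.03), Cox18 (-0.74 ± 0.05) and Bcs1l (-0.33 ± 0.06), and the insertase Oxa1l rose as deposited (0.14 ± 0.05), was not called after median centring (0.10) and fell with poly-A scaling (-0.44). Among 10 quality control proteases 5 fell and 2 rose. Htra2 (-1.03 ± 0.05), the matrix protease subunit Clpp (-0.91 ± 0.04) and the rhomboid protease Parl (-0.72 ± 0.04) fell, while Clpx, the unfoldase of Clpp, and Yme1l1 rose as deposited (0.31 ± 0.05 and 0.25 ± 0.04) and fell after that scaling (-0.27 and -0.33). Of 12 genes of outer membrane pores and of MICOS, the complex that shapes inner membrane folds, 10 fell, led by Apoo (-1.19 ± 0.05), Dnajc11 (-1.18 ± 0.05) and Chchd6 (-0.97 ± 0.05), and Apool rose as deposited (0.36 ± 0.05), a call lost after that scaling (-0.22).

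The import stress and mitophagy list had 5 of 7 genes higher, 2 lower and a median of 0.51, beside 35.8% higher and 37.5% lower of all genes. With poly-A scaling 3 of the 7 were called higher, beside 6.96% of all genes. Ddit3, a transcription factor of stress responses, averaged 1384 ± 95.5 in NADA and 217 ± 4.93 in vehicle (SD, n = 3 each), a log2 fold change of 2.67 ± 0.05. Pink1 encodes a kinase whose protein is degraded when import works and builds up on mitochondria when it fails. Its transcript averaged 204 ± 5.1 in NADA and 42.7 ± 3.58 in vehicle, a log2 fold change of 2.26 ± 0.07. Neither the protein nor import was measured here. The mitophagy receptor Bnip3 rose by 1.5 ± 0.05, and these 3 genes were also called higher with poly-A scaling (2.09, 1.69 and 0.92). Fundc1 and Atf5 rose as deposited (0.47 ± 0.04 and 0.51 ± 0.06) but were not called after it (-0.11 and -0.07), and Msto1 (-0.98 ± 0.08) and Atad1 (-0.22 ± 0.04) fell.

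**Figure D5:**
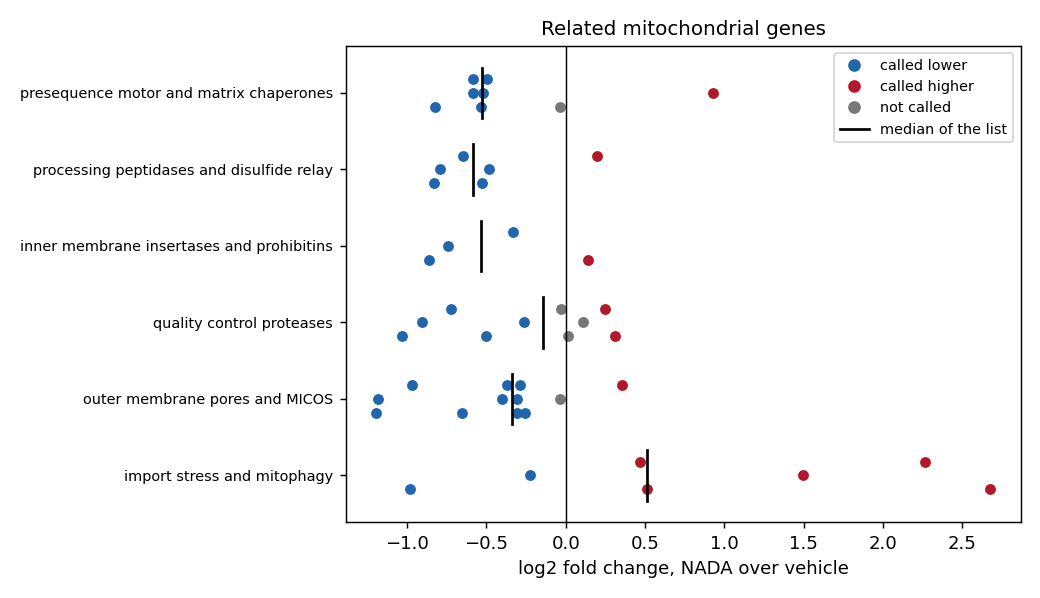
Log2 fold change (horizontal axis) of the 47 tested genes of 6 related lists, 1 dot per gene, blue for called lower, red for called higher and grey for not called, with the median of each list as a black bar. The median lies below 0 in 5 lists and at 0.51 in the import stress and mitophagy list, and of the 11 genes called higher as deposited 4 stayed so with poly-A scaling.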

How the data were processed

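Transcripts were measured in 3 NADA and 3 vehicle samples, grouped by sample title. The authors deposited linear intensity values, 1 per probe set and array (45101 probe sets, 2.19 to 20113), with no detection calls. The submitters' processing notes name MAS5 and RMA, without version or role. Array medians of 37.9 to 39.1 led to their use as deposited, after log2, and such scaling hides a change shared by most transcripts.

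The 64 control probe sets were left out. Probe sets with a geometric mean under 38.6, the median, were left out as dim, and the brightest with 1 gene was kept per gene, leaving 10526 genes. The fit of NADA against vehicle used lmFit and trended eBayes of limma 3.58.1 (two-sided) in R 4.3.3, with Benjamini-Hochberg adjustment over all genes. The fit was also run on simulated data in which far fewer genes changed than were called here, so that run does not test this comparison. All 32 symbols were found by gene identifier in a RefSeq table of GRCm38.p6, and 28 had a promoter sequence there. Alternatives were quantile normalization, median centring, poly-A scaling, 32 added before log2, a floor of 50, no brightness limit or one at the 70th percentile, other choices of probe set, array weights, no intensity trend, a replicate block, stricter thresholds and leaving out each array. Plots used matplotlib 3.10.9.

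Members, lists, roles and alternatives were chosen with earlier results of these data known. Per-array values are given for the 5 lowest and 5 highest log2 fold changes, the paralog pairs and the named core subunits. From each related list the 3 called genes with the smallest p in each direction were named, and Hspa9, Xpnpep3, Fundc1 and Atf5 were named after their values were seen.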

Additional observations from a re-analysis of the deposited data

How the results depend on the processing

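The direction and call of the 30 tested genes were computed under 20 alternatives, and in 563 of 600 such values neither changed, while 19 lost a call, 15 gained one and 3 changed sign. Those 3 were Timm17b after quantile normalization (0.0037) and Pmpcb (-0.027) and Timm21 (-0.40) with poly-A scaling. That scaling also gave 0 import genes higher, 8009 genes lower and 733 higher over the whole table, and 4 related genes higher. The median of the import genes was -0.39 after quantile normalization, -0.48 after median centring, -1.02 with poly-A scaling, -0.51 with a gene's probe sets averaged and -0.48 with x and s suffixes avoided, and lay between -0.47 and -0.42 when 1 array was left out. With a minimum of 1.5-fold, 13 import genes were lower and 0 higher, beside 1662 and 1369 of all genes, and 14 related genes were lower and 4 higher, a loss that follows from the added minimum. Numbers of members called lower ran from 25 to 27 without 1 array. The 15 gains were all of Tomm20, Tomm7 or Timm17b, and outside the 1.5-fold minimum the calls lost were of Pam16, Tomm34 and Grpel2, besides that of Pmpcb, counted among the changes of sign. The cause of these changes was not tested. The size of the smallest p-values depended on the fit, at unchanged log2 fold changes. The limma adjusted p of Timm8a1 was 3.6e-16 in the main fit, 7.1e-09 without the intensity trend and 2.8e-06 with a floor of 50. That of Timm23 was 6.1e-15, 2.3e-08 and 2.8e-06. With the replicate number as a block, 27 import genes fell and 2 rose, since Tomm20 (adjusted p = 0.0112) and Tomm7 (adjusted p = 0.0173) were then called by limma. No label says whether same-numbered arrays were handled together. Their deviations from the group means correlated at 0.165, -0.101 and 0.0189, which with so few arrays cannot decide it. Signs of the 7 paralog differences were the same in the 13 alternatives run for them. Without detection calls, brightness over the median is the only guard against background, and Timm8a2 and Tomm20l, tested with no brightness limit, were not called (0.17 and -0.07, limma adjusted p = 0.256 and 0.7).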

Other observations

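Several import genes start close to a gene on the opposite strand. By their RefSeq positions 10 tested import genes had such a neighbour within 1000 bases of their start, and 9 of the neighbours were tested. Of these 4 fell, 4 rose and 1 was not called, beside 37.5% lower and 35.8% higher of all genes tested. Beside Chchd4, which fell by 1.18 on the log2 scale, the membrane protein gene Tmem43 starts 284 bases away and rose by 0.57 ± 0.05. Beside Timm29 (-0.45), the Yip1 family gene Yipf2 rose by 0.85 ± 0.07, and beside Timm9 (-1.40), 2700049A03Rik, 173 bases away, rose by 0.23 ± 0.06. Poly-A scaling lowers each of these values by 0.58 and leaves the differences within a pair as they are. Sdhd, a subunit of succinate dehydrogenase that starts 52 bases from Timm8b (-0.59), had a log2 fold change of -0.19 ± 0.03. Parg, 58 bases from Timm23 (-1.30), had one of -0.24 ± 0.04, and Entr1, 32 bases from Pmpca (-0.39), one of -0.91 ± 0.06. The differences within these pairs were not tested, and the neighbours were looked up after the fold changes of the import genes were seen.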
